A study of Homo sapiens with 18 samples.

Results

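shERK5-4 and shERK5-5 are short hairpin RNAs that target the kinase ERK5, and CHLA-90 neuroblastoma cells given the first were compared directly with CHLA-90 cells given the second. The comparison used 6 of the 18 arrays of the study, the 3 labelled shERK5-4 and the 3 labelled shERK5-5 in this line, and all 21448 probes. Because the transcript of the target gene, MAPK7, did not differ detectably between the hairpins, the comparison asks how far the hairpins differed in other transcripts. The arrays measure RNA, so the level and activity of the ERK5 protein are not known from them. A result given as a difference is the log2 signal with shERK5-4 minus that with shERK5-5, so a positive value means more signal with shERK5-4.

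CHLA-90 and SK-N-BE(2), the other line of the study, are human neuroblastoma cell lines. Cells were seeded at 250000 per well with lentivirus made in HEK-293T cells from pLKO vectors for the control hairpin shNSC, shERK5-4 or shERK5-5. RNA was isolated 72 h later as biological triplicates, giving 6 groups of 3 arrays. All CHLA-90 groups, the control included, therefore carried a hairpin and had been exposed to virus, and a cell without virus is not among the groups. The labels do not give the hairpin sequences or their target sites, nor whether transduced cells were selected.

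A short hairpin RNA is cut by Dicer to a small interfering RNA, and the guide strand loaded into an Argonaute protein directs the cleavage of transcripts that pair with it along their length. A guide can also lower other transcripts through its seed, the bases near its 5′ end, in the manner of a microRNA, so hairpins with different sequences can share a target and differ elsewhere. ERK5 is a mitogen-activated protein kinase with a long C-terminal tail that is activated by MEK5 and phosphorylates transcription factors of the MEF2 family. Neuroblastoma arises from the sympathoadrenal lineage of the neural crest, and its adrenergic cell state is held by a small set of lineage transcription factors together with the enzymes of catecholamine synthesis.

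The knockdown of the target did not differ detectably. MAPK7 had log2 signals of 7.15, 7.57 and 7.33 with shERK5-4, 7.24, 7.83 and 7.22 with shERK5-5, and 8.37, 8.24 and 8.64 with shNSC. The hairpin arrays overlapped each other and all lay below the controls. The difference between hairpins was -0.08 ± 0.19 (SE of the limma model, as for every difference below), with a 95% confidence interval of -0.48 to 0.32 and an adjusted p of 0.8. An exact two-sided permutation of the 6 arrays gave p = 0.8, where 0.1 is the smallest value that 3 against 3 allows. MAPK7 was at 47.7% of the shNSC mean with shERK5-4 and at 50.5% with shERK5-5.

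Arrays of the same hairpin resembled each other more than arrays of different hairpins. Pearson correlations over all probes were 0.995 to 0.997 among the shERK5-4 arrays, 0.988 to 0.992 among the shERK5-5 arrays and 0.972 to 0.98 between the hairpins. Replicate 1 of shERK5-5 was the array least like its group, with a mean correlation of 0.9887. The shERK5-5 arrays had a narrower spread of values, with 25th percentiles of 4.19 to 4.29 against 4.06 to 4.12 for shERK5-4 and 75th percentiles of 9.61 to 9.64 against 9.70 to 9.74. This moved with brightness. In 4 bins of 5362 probes ordered by mean signal, from dim to bright, the median difference was -0.14, -0.14, 0.12 and 0.17, and 6.15%, 18.6%, 39.8% and 44.1% of the probes differed. Its part in single results was not tested, so list medians of this size are given below also after quantile normalization of the arrays, which removes that spread.

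Of the 21448 probes 5825 differed between the hairpins (27.2% at an adjusted p below 0.05 in limma), 3174 higher (14.8%) and 2651 lower (12.4%) with shERK5-4. Without replicate 1 of shERK5-5 the count was 4964, and after quantile normalization 5368. The differences ran from -6.63 to 4.52, and the median size among called probes was 0.85. At least 2-fold differences numbered 1118 higher and 932 lower, and at least 8-fold differences 9 higher and 44 lower. The 3 arrays of either hairpin lay wholly above or below those of the other in 5544 of the called probes (95.2%) and in 8509 of all probes (39.7%). Against shNSC, with which both hairpins share the same 3 control arrays, 3918 probes differed with shERK5-4 (18.3%; 10% higher and 8.25% lower) and 2721 with shERK5-5 (12.7%; 5.85% higher and 6.84% lower). Over 1 probe per gene these shares were 19.6% (10.7% and 8.88%) and 13.1% (5.72% and 7.38%).

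The genes with the largest deficits under shERK5-4 were a homeobox factor, a receptor and several membrane proteins. DLX5, a homeobox transcription factor of neural crest and skeletal development, had log2 signals of 6.89, 7.06 and 7.59 with shERK5-4 and 13.20, 14.16 and 14.06 with shERK5-5. The shNSC arrays stood between them at 11.17, 11.30 and 11.51, and no array of any group overlapped another group's. The difference was -6.63 ± 0.36 (98.8-fold, adjusted p = 1.19e-11 by limma). Relative to shNSC, DLX5 fell to 5.65% with shERK5-4 (adjusted p = 2.09e-08) and rose to 558% with shERK5-5 (adjusted p = 6.67e-05).

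For several of the other genes with large deficits under shERK5-4, shERK5-5 stayed near the control. GPR50, an orphan receptor related to the melatonin receptors, measured 7.69, 7.30 and 7.64 with shERK5-4 and 13.51, 13.28 and 13.67 with shERK5-5. With shNSC it measured 13.11, 13.11 and 13.43, so only the shERK5-4 arrays stood apart (difference -5.94 ± 0.22, 61.5-fold, adjusted p = 2.78e-14). RTN3, a reticulon that shapes the endoplasmic reticulum, measured 9.56, 9.49 and 9.74 with shERK5-4, 15.15, 14.68 and 14.66 with shERK5-5 and 14.59, 14.66 and 14.71 with shNSC. All 3 shERK5-4 arrays were far below the rest (-5.23 ± 0.19, 37.6-fold, adjusted p = 1.86e-14). LRRN3, a neuronal leucine-rich repeat membrane protein, was at 5.32% of shNSC with shERK5-4 and 110% with shERK5-5, CPNE2, a calcium-dependent phospholipid-binding copine, at 4.86% and 105%, and SRM, the spermidine synthase, at 8.4% and 105%. These 3 genes differed between hairpins by -4.37 ± 0.19, -4.44 ± 0.25 and -3.64 ± 0.25.

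PRR16, a proline-rich protein, was low with shERK5-4 (6.24, 6.21 and 6.10) and high with shERK5-5 (11.60, 12.16 and 11.90), around controls of 11.15, 10.96 and 11.18. It differed by -5.70 ± 0.17 (52.1-fold) and had the smallest adjusted p of the named genes, 1.35e-15. TMEM9B, a lysosomal membrane protein, differed by -4.53 ± 0.25. The next genes had means below the control under both hairpins, far lower under shERK5-4. SYNPO2, an actin-binding protein, was at 2.8% of shNSC with shERK5-4 and 69.3% with shERK5-5 (difference -4.63 ± 0.16), and TMEM97, a sterol-regulated membrane protein also known as the sigma-2 receptor, at 4.03% and 61% (-3.92 ± 0.16). Both passed the test against shNSC with either hairpin. DBH and the thiol methyltransferase TMT1A were at 2.59% each with shERK5-4 and at 70.7% and 69.1% with shERK5-5, where the shERK5-5 values did not pass the test (adjusted p = 0.214 and 0.148).

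The genes with the largest excess under shERK5-4 were mostly genes that shERK5-5 lowered. MAGEC1, an X-linked cancer-testis antigen, measured 11.49, 11.41 and 11.31 with shERK5-4, 6.40, 7.10 and 7.16 with shERK5-5 and 10.85, 10.90 and 10.86 with shNSC. Only the shERK5-5 arrays stood far apart, at 6.32% of the control (difference 4.52 ± 0.18, 22.9-fold, adjusted p = 6.4e-14). STARD7, which carries phosphatidylcholine to mitochondria, measured 13.99, 13.88 and 14.09 with shERK5-4 and 10.56, 10.43 and 10.95 with shERK5-5. The controls at 13.83, 13.81 and 14.36 surrounded the shERK5-4 values, and the difference was 3.34 ± 0.18 (10.1-fold). GHITM, a protein of the inner mitochondrial membrane, SVIP, a small inhibitor of VCP-dependent degradation, and TMEM64 had the same arrangement. They were at 14.4%, 12.2% and 13.5% of shNSC with shERK5-5 and at 124%, 115% and 101% with shERK5-4, where none of the 3 passed the test.

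A second set moved to either side of the control. YAP1, the Hippo pathway coactivator, measured 7.63, 7.65 and 7.53 with shERK5-4 and 4.87, 4.47 and 3.74 with shERK5-5. With shNSC it measured 6.44, 6.53 and 6.04, and the groups did not overlap (difference 3.24 ± 0.27, 9.47-fold, adjusted p = 5.63e-09). VSNL1, a neuronal calcium sensor, was at 238% of shNSC with shERK5-4 and 21.5% with shERK5-5. The palmitoyltransferase ZDHHC20 was at 212% and 20.3%, ARL2BP, a binding partner of the ARL2 GTPase, at 311% and 34.5%, the zinc finger gene ZNF772 at 254% and 29.3%, and GASK1B at 238% and 32.8%. All 6 genes passed the test against shNSC with each hairpin. CCDC181, a coiled-coil protein, rose to 473% with shERK5-4 and was at 64.5% with shERK5-5, which did not pass (adjusted p = 0.151).

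Transcription factors of the adrenergic state were lower with shERK5-4. Of 18 measured members 11 were lower and 0 higher, with a median difference of -0.79 against -0.04 over all 17687 genes, of which 28.7% differed, 12.6% lower and 16.1% higher. Without replicate 1 of shERK5-5 and after quantile normalization the median was -1. On the 3 shERK5-4 arrays the median member stood at -0.79, -0.70 and -0.70 relative to shNSC, and on the shERK5-5 arrays at -0.10, 0.21 and 0.29, without overlap. In SK-N-BE(2), where 26.2% of all genes differed, 13.7% lower and 12.5% higher, 8 of the 18 were lower and 0 higher.

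ISL1, a LIM homeobox factor of sympathetic neurons, measured 7.17, 7.20 and 7.57 with shERK5-4, 10.37, 11.06 and 10.85 with shERK5-5 and 10.56, 10.74 and 10.48 with shNSC. The shERK5-5 arrays overlapped the controls, while the shERK5-4 arrays lay 10.9-fold lower (difference -3.45 ± 0.19). TFAP2B, a neural crest factor, measured 9.43, 9.18 and 9.51 with shERK5-4, 12.86, 12.66 and 12.79 with shERK5-5 and 11.25, 11.06 and 11.63 with shNSC. MYCN, an oncogene amplified in some neuroblastomas, measured 6.71, 6.93 and 7.10 with shERK5-4. With shERK5-5 it measured 9.62, 9.63 and 10.06, and with shNSC 8.78, 8.63 and 8.99. Both genes stood on opposite sides of the control, with differences of -3.40 ± 0.19 and -2.86 ± 0.17. TFAP2B was at 26.1% and 274% of shNSC and MYCN at 27% and 196%, and each of these 4 values passed the test. KLF7, a Krüppel-like factor of neurons, had the same arrangement at 29.3% and 217% (-2.89 ± 0.16). The level of MYCN was unlike in the lines, with shNSC means of 8.8 in CHLA-90 and 17.13 in SK-N-BE(2). PHOX2A, HAND1, HAND2, GATA3, SATB1, INSM2 and ZNF536 were lower by 0.47 (SATB1) to 1.80 (INSM2), while GATA2 (0.10), SOX11 (-0.33) and INSM1 (-0.54) did not pass.

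The catecholamine and dense-core granule genes were divided. Of 23 measured members 9 were lower, 3 higher and 11 not called, with a median of -0.27 (-0.40 after quantile normalization). DBH, which converts dopamine to noradrenaline, measured 8.13, 8.30 and 8.78 with shERK5-4, 12.94, 13.16 and 13.42 with shERK5-5 and 13.62, 13.45 and 13.95 with shNSC. The shERK5-4 arrays stood alone at the low end, 27.3-fold below shERK5-5 (-4.77 ± 0.25). TH, the rate-limiting enzyme of the same pathway, differed by -0.27 and did not pass (adjusted p = 0.468), while DDC, the next enzyme, was lower by 1.92. CHGA, the granule protein chromogranin A, was at 6.62% of shNSC with shERK5-4 and 47.6% with shERK5-5, a fall with each (difference -2.85 ± 0.20). CADPS, which primes granules for release, differed by -2.82 ± 0.26, and SYT1, the calcium sensor of exocytosis, by -3.11 ± 0.17. CPE (0.91), SCG5 (0.80) and PCSK1N (0.45), which take part in prohormone processing, were higher with shERK5-4. In SK-N-BE(2) 10 members were lower and 7 higher.

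Neuronal cytoskeleton and differentiation genes were more often lower than higher, 14 against 5 of 31 measured, with a median of -0.54 (-0.46 after quantile normalization; in SK-N-BE(2) 11 and 6). DCX, the microtubule-binding protein doublecortin, measured 11.03, 10.98 and 10.91 with shERK5-4 and 14.04, 14.49 and 14.30 with shERK5-5, around controls of 13.11, 13.18 and 13.18. It was 9.87-fold lower with shERK5-4 (-3.30 ± 0.17) and changed against shNSC in opposite directions, to 22% and 217%. ELAVL4, a neuronal RNA-binding protein, differed by -2.28 ± 0.16. The neurofilament subunits went opposite ways: NEFM was lower with shERK5-4 (-2.06 ± 0.19), and NEFL was higher (2.81 ± 0.28). NEFL measured 8.89, 9.10 and 9.36 with shERK5-4, 5.61, 6.66 and 6.65 with shERK5-5 and 9.69, 9.78 and 9.81 with shNSC, so the shERK5-5 arrays were low. ELAVL2 (1.57), MAPRE3 (1.90), STMN4 (0.98) and INA (0.66) were also higher with shERK5-4.

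Genes of synaptic vesicles moved both ways, 7 higher (29.2%) and 6 lower (25%) of 24 measured, against 16.1% and 12.6% of all genes. The median was -0.05 (-0.04 after quantile normalization), and in SK-N-BE(2) 3 were higher and 5 lower. SYN2, a vesicle phosphoprotein, differed by -2.51 ± 0.14 and was at 25.3% of shNSC with shERK5-4 and 144% with shERK5-5. RAB3C (-1.37 ± 0.18) and the vesicle glycoprotein SV2C (-1.34 ± 0.20) were lower with shERK5-4, and both rose with shERK5-5, to 200% and 291% of shNSC. SYP (1.50), CPLX2 (1.47), NLGN1 (1.31), UNC13A (1.14), NRXN2 (1.04), SV2A (1.00) and SYT5 (0.50) were higher with shERK5-4.

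Axon guidance genes were lower in 13 and higher in 4 of 36 measured members, with a median of -0.24 (-0.20 after quantile normalization; in SK-N-BE(2) 11 lower and 5 higher). The secreted repellent SEMA3A measured 9.93, 10.08 and 10.10 with shERK5-4, 7.78, 7.85 and 7.61 with shERK5-5 and 7.20, 7.48 and 7.53 with shNSC. It was the member with the largest difference, 2.29 ± 0.16, and rose to 620% of shNSC with shERK5-4. PLXNA2, a semaphorin co-receptor, and the netrin receptor UNC5C were lower with shERK5-4 (-2.21 ± 0.26 and -1.86 ± 0.19), as was the ephrin receptor EPHA7 (-1.37 ± 0.17).

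Among 28 measured WNT pathway genes 6 were lower (21.4%) and 3 higher (10.7%), against 12.6% and 16.1% of all genes. The median was -0.18 (-0.06 after quantile normalization). LGR5, the R-spondin receptor, measured 9.44, 9.78 and 9.96 with shERK5-4, 13.55, 13.29 and 13.27 with shERK5-5 and 11.70, 11.64 and 11.69 with shNSC. The controls lay between the hairpins, and the difference was -3.64 ± 0.16 (12.5-fold). The secreted antagonists DKK1 and DKK2 were lower by 3.59 ± 0.23 and 2.32 ± 0.23, while SFRP1, another secreted antagonist, was higher (0.78 ± 0.15). CTNNB1, the β-catenin gene, was higher by 0.72.

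Of 15 measured members of the ERK5 cascade itself 1 was lower and 1 higher, 6.67% each, against 12.6% and 16.1% of all genes. After quantile normalization 2 were lower and 1 higher. The median was -0.12 as deposited and -0.17 after quantile normalization. NR4A1, a nuclear receptor gene induced through MEF2, measured 8.17, 8.33 and 8.45 with shERK5-4 and 9.10, 9.27 and 9.46 with shERK5-5, against 8.58, 9.08 and 9.24 with shNSC (difference -0.96 ± 0.19, adjusted p = 0.000609). The 14-3-3 protein YWHAB was higher by 0.80 ± 0.18. The upstream kinase MAP2K5 (-0.48), MEF2A (-0.27), MEF2C (0.46), MEF2D (-0.25) and KLF4 (-0.31) did not pass, nor did KLF2 (-0.62 ± 0.25, adjusted p = 0.0745) or the kinase SGK1 (-0.46 ± 0.18, adjusted p = 0.0659). SGK1 passed without replicate 1 of shERK5-5 (-0.70, adjusted p = 0.00442), after quantile normalization (adjusted p = 0.0251) and with array weights (adjusted p = 0.0223). KLF2 passed without replicate 1 of shERK5-5 (-0.77, adjusted p = 0.0496), with the replicate block (-0.62, adjusted p = 0.0437) and with array weights (-0.72, adjusted p = 0.0397).

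Feedback genes of the ERK1/2 pathway were lower with shERK5-4, 10 lower and 2 higher of 27 measured with the immediate early genes, with a median of -0.32 (-0.22 after quantile normalization; in SK-N-BE(2) 16 lower and 0 higher). SPRY1, a Sprouty inhibitor of receptor signalling, measured 5.63, 5.73 and 6.21 with shERK5-4, 8.74, 8.60 and 8.39 with shERK5-5 and 7.72, 7.49 and 7.38 with shNSC. The phosphatase gene DUSP6 measured 6.92, 6.32 and 6.88 with shERK5-4, 8.21, 8.45 and 8.69 with shERK5-5 and 7.62, 7.25 and 7.25 with shNSC. Both fell below the control with shERK5-4 and rose above it with shERK5-5, with differences of -2.72 ± 0.20 and -1.74 ± 0.18. SPRY4 did so as well (-1.46 ± 0.18), and PHLDA1 (-1.69 ± 0.18), ETV4 (-1.51), EGR1 (-1.33), DUSP4 (-1.14), SPRY2 (-1.05), ETV1 (-1.02) and CCND1 (-0.91) were lower too. The members higher with shERK5-4 were JUN (1.20) and ETV5 (0.66), and FOS (-0.23), IER2 (-0.24) and MYC (-0.34) did not pass.

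Genes of sterol synthesis and uptake were lower with shERK5-4 in 14 of 22 measured members and higher in 1, with a median of -0.82 (-0.92 after quantile normalization). The median member stood at -1.04, -0.97 and -0.90 relative to shNSC on the shERK5-4 arrays and at -0.15, -0.22 and -0.19 on the shERK5-5 arrays. In SK-N-BE(2) 16 were lower and 0 higher. SREBF2, the transcription factor that drives the pathway, measured 8.94, 8.60 and 8.47 with shERK5-4, 12.20, 11.95 and 12.38 with shERK5-5 and 12.12, 12.06 and 12.56 with shNSC. The shERK5-5 arrays overlapped the controls, and the shERK5-4 arrays were 11.4-fold lower (-3.51 ± 0.19, adjusted p = 1.19e-11). INSIG1, which retains SREBP in the endoplasmic reticulum, measured 7.24, 6.52 and 6.82 with shERK5-4 and 9.79, 9.18 and 9.42 with shERK5-5 (-2.60 ± 0.22). The enzymes HMGCS1 (-1.87 ± 0.17), MSMO1 (-1.50), CYP51A1 (-1.44), ACAT2 (-1.17), EBP (-0.89), SQLE (-0.88), SC5D (-0.84), IDI1 (-0.79), MVK (-0.79) and NSDHL (-0.51) were lower. SCAP, the escort of SREBP, was higher (0.77), and FDPS (-0.41), DHCR7 (-0.41), MVD (-0.26), LSS (0.16) and PMVK (0.50) did not pass.

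The promoter of SREBF2 is shown because this factor is itself a gene of the pathway and holds a match to the element that its protein binds. The sterol response element was written as TCACNCCAC, with N any base, and searched on both strands in the 250 bases before each gene's start in RefSeq promoters of GRCh38.p14. It was in 1 of the 20 list members with a promoter, against 0.875% of all 27305 promoters. Of the 12 lower members with a promoter 1 held it. The window is chr22:41832947-41833005, plus strand, with the match in capitals 125 to 133 bases before the start.
SREBF2: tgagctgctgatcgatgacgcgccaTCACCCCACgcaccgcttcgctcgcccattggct
None of the 6 motifs searched in this way contains another.

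Cell cycle genes were more often lower than higher with shERK5-4, in mitosis and in replication. Of 38 measured G2/M genes 18 were lower and 2 higher, with a median of -0.47 (-0.53 after quantile normalization). Without replicate 2 of shERK5-4 the count of lower members was 10. In SK-N-BE(2) 29 were lower and 0 higher. FOXM1, the transcription factor of G2/M genes, measured 11.72, 11.76 and 11.76 with shERK5-4, 13.94 to 14.01 with shERK5-5 and 13.63, 13.58 and 13.82 with shNSC. The shERK5-5 arrays lay above the controls without passing the test (adjusted p = 0.186), and the shERK5-4 arrays were 4.71-fold below shERK5-5 (-2.24 ± 0.15). BIRC5, or survivin, of the chromosomal passenger complex, differed by -2.97 ± 0.23, CCNA2, cyclin A2, by -2.04 ± 0.15 and the kinase AURKB by -1.59 ± 0.19. AURKA (0.94) and ANLN (0.54) were higher, and CDK1 (-0.37), PLK1 (0.39) and MKI67 (-0.42) did not pass.

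CCNA2 is shown with the CCAAT box through which the NF-Y factor acts on many G2/M promoters. The letters CCAAT were in 22 of 32 list promoters (68.8%), against 33.0% of all. Of the 15 lower members with a promoter 10 held it. The CCNA2 window is chr4:121823910-121823964, minus strand, with the box in capitals as it reads on the other strand, 52 to 56 bases before the start.
CCNA2: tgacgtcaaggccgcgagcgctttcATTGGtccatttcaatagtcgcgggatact

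For G1/S and DNA replication 15 of 46 measured genes were lower and 5 higher, with a median of -0.31 (-0.40 after quantile normalization). On replicate 1 of shERK5-5 the median member stood at -0.51 relative to shNSC, within the shERK5-4 range of -0.56 to -0.44, and on its other arrays at -0.20 and -0.23. In SK-N-BE(2) 35 were lower and 1 higher, and in the test of the difference between lines 18 members passed, all with the more positive difference in CHLA-90, against 14.2% of all genes passing (8.82% more positive, 5.4% more negative). DTL, an adaptor of the CUL4 ubiquitin ligase, measured 11.70, 11.69 and 11.91 with shERK5-4, 13.13, 13.25 and 13.27 with shERK5-5 and 13.54, 13.60 and 13.65 with shNSC (difference -1.45 ± 0.15). CDK6, a G1 kinase, was at 24.4% of shNSC with shERK5-4 and 69.4% with shERK5-5 (-1.51 ± 0.18), and cyclin D1, CCND1, at 61.4% and 115% (-0.91 ± 0.16). CHAF1B, a histone chaperone subunit, was higher with shERK5-4 (1.39 ± 0.18), since it fell to 36.4% with shERK5-5 and was at 95.3% with shERK5-4. E2F1 (-0.32), CDC6 (0.20), PCNA (-0.38) and MCM2 (0.25) did not pass.

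DTL is shown with a match to the E2F site, written as TTTGGCGC. The site was in 5 of 38 list promoters (13.2%), against 0.553% of all. The window is chr1:212035715-212035747, plus strand, with the match in capitals in the last 8 bases before the start.
DTL: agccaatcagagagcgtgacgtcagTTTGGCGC

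In homologous recombination and Fanconi repair 6 of 15 measured genes were lower and 0 higher, with a median of -0.38 (-0.49 after quantile normalization; in SK-N-BE(2) 10 lower and 1 higher). The helicase BLM differed by -1.11 ± 0.23, FANCB by -0.89 ± 0.20, BRIP1 by -0.83 ± 0.20 and PALB2, the partner of BRCA2, by -0.80 ± 0.16. BRCA1 (0.08) and BARD1 (0.05) did not pass.

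Genes of the ATF4 and amino acid response showed no common direction, with 7 lower and 2 higher of 34 measured and a median of 0.02, or -0.04 after quantile normalization (in SK-N-BE(2) 15 and 2). ASNS, the asparagine synthetase, measured 10.87, 11.23 and 10.94 with shERK5-4, 13.25, 12.87 and 12.77 with shERK5-5 and 12.20, 12.31 and 11.90 with shNSC. It fell below the control with shERK5-4 and rose above it with shERK5-5 (difference -1.95 ± 0.18). The lipoprotein receptor VLDLR did the same (-2.42 ± 0.22), and SHMT2, the mitochondrial serine hydroxymethyltransferase, was lower by 0.75 ± 0.16. The arginine transporter SLC7A1 (1.27 ± 0.18) and DDIT3 (0.65) were higher, and ATF4 itself (0.03) and TRIB3 (0.33) did not pass.

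ASNS is shown with a match to the C/EBP-ATF response element, written as TGATGNAA, through which ATF4 acts. It was in 4 of 26 list promoters (15.4%), against 3.19% of all. The window is chr7:97872444-97872501, minus strand, with the match in capitals 61 to 68 bases before the start.
ASNS: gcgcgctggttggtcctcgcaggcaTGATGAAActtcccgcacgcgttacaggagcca

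Genes of ribosomes and mitochondria were more often higher than lower with shERK5-4. Of 28 measured mitochondrial ribosomal proteins 12 were higher (42.9%) and 1 lower (median 0.36). Of 24 respiratory chain and ATP synthase subunits 8 were higher (33.3%) and 1 lower (0.42). Of 14 cytosolic ribosomal proteins 6 were higher (42.9%) and 0 lower (0.40), and of 20 ribosome biogenesis genes 5 (25%) and 1 (0.34). After quantile normalization the medians were 0.28, 0.32, 0.29 and 0.30, and with replicate 1 of shERK5-5 also left out 0.34, 0.33, 0.28 and 0.22. The counts higher and lower after quantile normalization were 10 and 2, 7 and 1, 5 and 1, and 4 and 1. Without replicate 2 of shERK5-4 the count of higher ribosome biogenesis genes was 3. These are bright probes, and the brightest bin of 5362 probes had a median of 0.17 as deposited with 27.2% higher. The share of ribosome biogenesis genes higher was below that of this bin. In SK-N-BE(2) the counts were 4 higher and 6 lower, 4 and 1, 0 and 0, and 1 and 9 in the same order. Relative to shNSC the median mitochondrial ribosomal protein stood at 0.15, 0.13 and 0.19 on the shERK5-4 arrays and at -0.31, -0.20 and -0.28 on the shERK5-5 arrays.

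MRPS35 measured 11.71, 11.66 and 11.62 with shERK5-4, 10.15, 10.38 and 10.23 with shERK5-5 and 11.34, 11.31 and 11.13 with shNSC (1.41 ± 0.16). MRPL13 differed by 1.95 ± 0.24 and MRPS10 by 1.39 ± 0.19, whereas MRPL47 was lower with shERK5-4 (-2.02 ± 0.23), at 19.7% of shNSC. CYC1, the cytochrome c1 subunit of complex III, was higher by 1.29 ± 0.21, the complex I subunit NDUFB8 by 1.16 ± 0.22 and the ATP synthase subunit ATP5F1A by 0.96 ± 0.18. Among cytosolic ribosomal proteins RPS19 was higher by 0.86 ± 0.20, RPL11 by 0.71 ± 0.18, RPL18 by 0.63 ± 0.17 and RPL19 by 0.99 ± 0.28. RPL19 measured 11.58 on replicate 1 of shERK5-5 and 13.09 and 13.25 on its other arrays, and without that replicate it differed by 0.46 and did not pass (adjusted p = 0.0626). In ribosome biogenesis NOP16 (0.98 ± 0.18), POLR1C (0.89 ± 0.16) and POLR1B (0.79 ± 0.20) were higher, and SRM, described above, was the lower member.

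Stress-related lists had their largest counts on the higher side. Like the hypoxia and lysosome lists that follow, they are bright, with median signals of 10.09 to 11.66. The brightest bin had 27.2% of probes higher and a median of 0.17 as deposited, and the part of brightness was not tested. Of 19 measured NRF2 and glutathione genes 10 were higher and 2 lower, with a median of 0.59 (0.49 after quantile normalization, with 6 higher). The count of higher members was also 6 without any 1 of the shERK5-4 arrays, and without replicate 1 or replicate 3 of shERK5-5. KEAP1, the adaptor that targets NRF2 for degradation, was higher by 1.40 ± 0.24, GCLM, a subunit of the glutathione-producing ligase, by 1.12 ± 0.22, and NFE2L2, the NRF2 gene, by 0.69. TXNRD1, thioredoxin reductase, measured 10.71, 10.53 and 10.59 with shERK5-4, 13.10, 13.18 and 12.89 with shERK5-5 and 12.14, 12.28 and 12.37 with shNSC, a difference of -2.45 ± 0.17 against the direction of the list. HMOX1 was lower as well (-0.90). In SK-N-BE(2) 2 members were higher and 4 lower.

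Of 13 heat shock genes 6 were higher and 0 lower, with a median of 0.41 (0.30 after quantile normalization). The chaperone HSPA1A differed by 1.13 ± 0.19, its co-chaperones BAG3 by 1.26 ± 0.24 and DNAJB1 by 0.82 ± 0.19, and the regulator HSF1 by 0.83 ± 0.19. All 4 were also higher with shERK5-4 than with shNSC. In SK-N-BE(2) 1 member was higher and 3 lower. In the endoplasmic reticulum list 6 of 21 were higher and 1 lower, with a median of 0.18 (0.13 after quantile normalization). The share higher, 28.6%, and the median were near those of the brightest bin. EDEM1 (1.13 ± 0.20) and SEL1L (0.99 ± 0.16), which serve the degradation of misfolded proteins, were higher, and the stress sensor ERN1 differed by 0.75 ± 0.15, while the chaperone HSPA5 (0.18) and XBP1 (0.29) did not pass.

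Hypoxia and glycolysis genes were higher in 12 and lower in 4 of 28 measured, with a median of 0.32 (0.31 after quantile normalization, with 10 and 5; 6 higher without replicate 3 of shERK5-4), while in SK-N-BE(2) 1 was higher and 11 lower. Those higher were mostly glycolytic enzymes: TPI1 (1.05 ± 0.19), PFKL (1.08), GPI (0.99), PFKP (0.91 ± 0.16), ENO2 (0.88), HK1 (0.82) and PGAM1 (0.64). Those lower were ADM, adrenomedullin (-1.70 ± 0.22), the oxygen sensor EGLN3 (-1.19 ± 0.19), VEGFA (-0.85) and KDM3A (-0.79). In the test of the difference between lines 12 members had the more positive hairpin difference in CHLA-90 and 2 the more negative. Over all genes the shares were 8.82% and 5.4%.

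Of 32 lysosome and autophagy genes 11 were higher (34.4%, against 27.2% in the brightest bin) and 3 lower. The median was 0.34 (0.25 after quantile normalization, with 7 higher). The count of higher members was also 7 without any 1 of the shERK5-4 arrays or replicate 2 of shERK5-5. ATG9A, the autophagy membrane protein, measured 7.31, 7.83 and 7.27 with shERK5-4, 10.67, 10.57 and 10.87 with shERK5-5 and 9.58, 9.46 and 9.90 with shNSC. It was 9.4-fold lower with shERK5-4 (-3.23 ± 0.19), the opposite of most called members. GABARAPL2 (1.08 ± 0.15), ATG4A (1.06 ± 0.21) and LAMP2 (0.98 ± 0.16) were higher.

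Interferon-stimulated genes and RNA sensors were mostly dim and not called. Of 31 measured 9 were higher with shERK5-4 and 1 lower, with a median of 0.23 (0.30 after quantile normalization), and in SK-N-BE(2) 4 were higher and 2 lower. The median member stood at 0.18, 0.11 and 0.14 relative to shNSC on the shERK5-4 arrays and at -0.02, 0.04 and -0.05 on the shERK5-5 arrays. IFI6, a mitochondrial interferon-induced protein, measured 10.50, 10.72 and 10.46 with shERK5-4, 8.50, 8.11 and 8.40 with shERK5-5 and 10.76, 10.42 and 10.66 with shNSC. The shERK5-5 arrays were the ones apart (2.22 ± 0.17, 20.6% of shNSC). RIGI, the sensor of viral RNA ends, differed by 1.77 ± 0.25 and was at 316% of shNSC with shERK5-4 and 92.4% with shERK5-5. IFIT1, which binds foreign RNA caps, differed by 1.45 ± 0.21 and PARP9 by 1.31 ± 0.21. IFIH1 (1.19), TLR3 (1.12), IFI44 (0.98), IRF9 (0.88) and IFIT3 (0.68) were higher, OAS3 was lower (-0.79), and MX1 (-0.04), ISG15 (-0.33) and OAS1 (0.37) did not pass.

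IFI6 and IFIT1 are shown because both hold the interferon-stimulated response element, to which ISGF3 and IRF factors bind. Written as GAAA, any 2 bases and GAAA, it was in 14 of 24 list promoters (58.3%), against 3.07% of all. It was in 5 of the 9 members that were higher with shERK5-4 and in the 1 that was lower. Whether the element bears on the difference between hairpins was not tested. The IFI6 window is chr1:27672314-27672373, minus strand, with the match 147 to 156 bases before the start. The IFIT1 window is chr10:89392482-89392541, plus strand, with the match in capitals as it reads on the other strand, 107 to 116 bases before the start.
IFI6: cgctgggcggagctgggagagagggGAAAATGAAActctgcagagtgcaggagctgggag
IFIT1: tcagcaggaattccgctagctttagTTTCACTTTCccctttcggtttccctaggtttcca
The sixth motif, the E-box CACGTG of MYC proteins, was in 2 of 16 ribosome biogenesis promoters (12.5%), against 6.49% of all. Of the 5 higher members with a promoter 0 held it, and the 1 lower member did.

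Of 14 measured genes that make or use small RNAs 3 were higher and 1 lower, a share near the 28.7% of all genes, with a median of 0.18 (0.21 after quantile normalization). Over the arrays left out the median ranged from 0.07 to 0.36, and without replicate 3 of shERK5-5 5 were higher and 2 lower. AGO1, an Argonaute, was lower with shERK5-4 (-1.05 ± 0.20) since it rose to 238% of shNSC with shERK5-5. AGO4 (0.87 ± 0.18), the silencing scaffold TNRC6A (1.07 ± 0.26) and LIN28B, which blocks let-7 maturation (1.20 ± 0.22), were higher. AGO2 (-0.18), DICER1 (-0.59), DROSHA (0.37) and XPO5 (0.37) did not pass.

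Among 17 measured YAP and TEAD genes 5 were higher and 1 lower, with a median of 0.18 (0.25 after quantile normalization). Without replicate 1 of shERK5-4 the count of higher members was 3, and without replicate 3 of shERK5-5 the median was -0.06. Beside YAP1, its paralogue WWTR1 (1.04 ± 0.25) and the LIM protein AJUBA (1.59 ± 0.24) were higher, as were CCN1 (0.65) and TEAD4 (0.51). CCN1 was below the control with each hairpin, at 60.7% of shNSC with shERK5-4 and 38.7% with shERK5-5. TEAD4 was dim, with group means of 3.29 and 2.77. NT5E, an ectonucleotidase counted among the targets, was lower (-2.59 ± 0.17), and the targets CCN2 (0.43) and ANKRD1 (-0.13) did not pass. Of 23 contractile and actin genes 7 were higher (30.4%) and 5 lower (21.7%), against 16.1% and 12.6% of all genes. The median was -0.04 (-0.08 after quantile normalization). SRF (1.94 ± 0.21) and vinculin, VCL (1.89 ± 0.19), were among the higher members and SYNPO2 and CALD1 (-1.64 ± 0.21) among the lower. SRF measured 7.88, 7.92 and 7.84 with shERK5-4 and 5.80, 6.09 and 5.94 with shERK5-5, against 7.48, 6.92 and 7.93 with shNSC, so again the shERK5-5 arrays were the low ones.

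Extracellular matrix and TGF-β genes were lower in 6 (21.4%) and higher in 4 (14.3%) of 28 measured, against 12.6% and 16.1% of all genes. The median was -0.23 (-0.10 after quantile normalization, with 5 lower and 4 higher). TGFBI, a matrix protein induced by TGF-β, was at 8.27% of shNSC with shERK5-4 and 46.5% with shERK5-5, a fall with each (difference -2.49 ± 0.19). The proteoglycan DCN was lower by 1.87 ± 0.15 and FN1, fibronectin, by 1.61. The receptor TGFBR1 (2.05 ± 0.19), SPARC (1.69 ± 0.16) and TGFB1 (1.66) were higher with shERK5-4.

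Markers of the labelled cell type were present with both hairpins. The 14 measured neuroblastoma markers had mean log2 signals of 11.55 to 11.77 over the shERK5-4 arrays, 12.83 to 13.08 over the shERK5-5 arrays and 13.05 to 13.22 over the controls, and 11 were lower with shERK5-4 and 1, SYP, higher. Many of them are also members of the adrenergic, catecholamine and neuronal lists above. Markers of Schwann cells, endothelium, blood, and kidney and other epithelium had mean signals of 3.64 to 5.22 with shERK5-4 and 3.69 to 5.55 with shERK5-5. Their defining genes SOX10 (group means of 4.97 and 5.01), PECAM1 (4.14 and 4.55), PTPRC (4.14 and 4.39) and CDH16 (4.11 and 4.12) were dim with both hairpins and did not differ detectably. Of these 37 markers EGFL7 and KRT8 had group means above 9, and 3 passed the test, all lower with shERK5-4: CD14 (-0.86), ESAM (-0.56) and FABP7 (-0.49). Their part in the results above was not tested. Of 11 fibroblast markers, several of which CHLA-90 expressed under shNSC, 4 were lower and 1 higher. In cultures like these, a change in the level per cell and a change in the mixture of cell states cannot be told apart.

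The same hairpins were compared in SK-N-BE(2), on 6 arrays that the CHLA-90 comparison did not use. There 5246 probes differed (24.5%), 2538 higher (11.8%) and 2708 lower (12.6%) with shERK5-4. Called the same way in both lines were 2501 probes, 42.9% of the CHLA-90 calls and 47.7% of those in SK-N-BE(2), 1347 higher and 1154 lower. Called in opposite directions were 209, or 3.59% and 3.98%. The differences of the lines had a Pearson correlation of 0.543 over the 21448 probes, which are not independent.

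RTN3 differed by -5.23 in CHLA-90 and -5.16 in SK-N-BE(2), where it measured 8.40, 7.94 and 8.66 with shERK5-4 and 13.27, 13.44 and 13.76 with shERK5-5. The difference between lines was not detectable for RTN3 (-0.08 ± 0.27, 95% confidence interval -0.63 to 0.48, adjusted p = 0.887). TMEM9B (-4.53 and -4.62), CPNE2 (-4.44 and -3.74), STARD7 (3.34 and 3.44), ZDHHC20 (3.39 and 3.41), ARL2BP (3.17 and 3.09) and TMEM64 (2.91 and 2.97) likewise had differences that did not detectably depend on the line. STARD7 in SK-N-BE(2) measured 13.52, 13.60 and 13.90 with shERK5-4 and 10.11, 10.40 and 10.18 with shERK5-5, with controls of 13.72, 13.82 and 13.79. As in CHLA-90, the shERK5-5 arrays were the ones that left the control. PRR16 was lower with shERK5-4 in both lines but more so in CHLA-90 (-5.70 against -3.81), and TMEM97 more so in SK-N-BE(2) (-3.92 against -5.90).

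The size of the difference depended on the line for 2896 probes (13.5%), of which 1727 (8.05%) had the more positive difference in CHLA-90 and 1169 (5.45%) the more negative, and 1695 of the CHLA-90 calls (29.1%) were among them. DLX5, the widest gap in CHLA-90, measured 5.27, 5.47 and 6.59 with shERK5-4 and 5.75, 6.87 and 7.53 with shERK5-5 in SK-N-BE(2), where the groups overlapped (-0.94, adjusted p = 0.0664). MAGEC1 measured between 3.59 and 4.10 on all 9 SK-N-BE(2) arrays and did not differ there. YAP1 differed by 0.28 in SK-N-BE(2) (adjusted p = 0.545), against 3.24 in CHLA-90. DBH was dim in SK-N-BE(2), at 3.71 to 5.61, with a difference of -1.04.

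Other genes differed mainly in SK-N-BE(2). HGF, the ligand of the MET receptor, measured 5.63, 6.00 and 6.02 there with shERK5-4 and 10.79, 10.97 and 11.21 with shERK5-5, while in CHLA-90 it stayed between 4.00 and 4.75 and did not differ (-0.12 ± 0.20, adjusted p = 0.712). LUM, the proteoglycan lumican, differed by -4.43 in SK-N-BE(2) and -0.63 in CHLA-90, and CAPN6 by -3.70 and 0.17. The LUM difference in CHLA-90 did not pass without replicate 1 of shERK5-4 (-0.57, adjusted p = 0.0596) or replicate 2 of shERK5-5 (-0.44, adjusted p = 0.102).

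A few genes went opposite ways in the lines. CCNG2, cyclin G2, measured 11.03, 11.22 and 10.84 with shERK5-4 and 12.77, 12.31 and 12.11 with shERK5-5 in CHLA-90, but 11.76 to 12.06 with shERK5-4 and 8.88, 9.11 and 8.80 with shERK5-5 in SK-N-BE(2). The difference was -1.37 in the first line and 3.01 in the second, and neither pair of groups overlapped. ADCYAP1R1, the receptor of the neuropeptide PACAP, differed by -2.27 in CHLA-90 and 1.75 in SK-N-BE(2). IL13RA2, a decoy receptor for interleukin 13, differed by 1.98 in CHLA-90 and -1.97 in SK-N-BE(2), and each of these values passed the test in its line.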

How the data were processed

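The values are log2 signals that the authors deposited, 1 per probe and array, with the base inferred from their range. RNA was labelled with a GeneChip WT kit, per the labels' protocols. How probes were summarised and normalized, and the genome build, is not given in the sources used here. Without detection calls a probe's background is unknown, and precision is limited by having 3 arrays per group.

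A limma model (3.58.1, R 4.3.3) with 6 group means was fitted to all 18 arrays (12 residual and 9.588 prior degrees of freedom). Benjamini-Hochberg adjustment ran over all 21448 probes, with a threshold of 0.05. Contrasts were shERK5-4 minus shERK5-5 in each line, the difference between these, and each hairpin against shNSC in CHLA-90. Of the probes 17709 had 1 gene symbol, and 3739 without one were tested but not named. Genes with several probes took the probe with the highest mean. A percent of shNSC is 2 to the power of the difference of log2 means.

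Members and the 46 gene lists, written from general knowledge, were chosen with earlier results of these data known. Genes named are MAPK7, the 12 most positive and 12 most negative differences among called genes without overlap of arrays, up to 4 members with the smallest p of each described list, and 5 in each direction called alike in both lines or differing between them. Genes known only by number, pseudogenes, antisense and small RNA genes were passed over. Further list members are given to account for each list and were chosen with their values in view. Alternatives were median centring, quantile normalization, a filter on probes below the 25th percentile, a replicate block, other fits, weights and thresholds, and leaving out each array. Quantile normalization without replicate 1 of shERK5-5 was added after the data had been seen. In simulated data for the CHLA-90 contrast with 21448 probes the fit recovered 98.5% of differences of 2, 67.2% of 1 and 7.46% of 0.5, with 3 false calls. Each size was given to 66 or 67 probes, far fewer than differed in the data. The adjusted threshold was therefore stricter there, and these shares do not give the recovery in the data.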

Additional observations from a re-analysis of the deposited data

Results flagged for a closer look

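The hairpin difference itself differed between CHLA-90 and SK-N-BE(2) for 2896 probes, by the limma test of the difference between lines at an adjusted p below 0.05. Among the 132 genes besides MAPK7 that the naming rule chose, those with such a difference are given with its value in log2, the CHLA-90 difference minus that of SK-N-BE(2). Further list members named in the text are not included. What sets the lines apart was not tested.

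Some genes passed the test in CHLA-90 and not in SK-N-BE(2): BAG3 (1.67), CADPS (-3.30), CHAF1B (1.00), CYC1 (1.09), DLX5 (-5.69), EDEM1 (1.11), EPHA7 (-1.24), GCLM (1.46), HSPA1A (1.51), IFI6 (2.16), IFIT1 (1.04), LIN28B (0.93), MAGEC1 (4.28), NEFL (2.44), POLR1B (1.18), POLR1C (0.68), RAB3C (-1.20), RPS19 (1.16), SFRP1 (1.08), TPI1 (1.39), UQCRC1 (1.00) and YAP1 (2.96). Interferon, heat shock and ribosome biogenesis genes are among them. Among the same 132 genes the reverse, a pass in SK-N-BE(2) alone, held for CAPN6 (3.87), HGF (4.99) and SGK1 (1.45).

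In both lines, in the same direction and with the larger size in CHLA-90, were ADM (-0.95), CALD1 (-0.94), CCDC181 (1.93), DBH (-3.73), DCX (-1.36), DKK1 (-2.11), GPR50 (-3.67), INSIG1 (-1.50), ISL1 (-0.87), LGR5 (-1.47), LRRN3 (-2.10), MRPS35 (0.74), MYCN (-1.64), NT5E (-1.64), PRR16 (-1.90), SEMA3A (1.52), SPARC (0.75), SPRY1 (-1.33), SYNPO2 (-1.49), SYT1 (-1.01), TFAP2B (-2.35), TMT1A (-3.01), VCL (0.92), VLDLR (-1.55) and ZNF772 (1.32). These include lineage factors such as TFAP2B, MYCN and ISL1 and the noradrenaline enzyme DBH. The same direction with the larger size in SK-N-BE(2) was seen for AURKB (1.33), BIRC5 (1.47), CCND1 (0.84), DCN (0.89), DUSP6 (1.76), FOXM1 (1.22), LUM (3.80), NEFM (1.65), SHMT2 (1.25), TGFBR1 (-1.74), TMEM97 (1.98) and TXNRD1 (1.12), among them the mitotic genes FOXM1, BIRC5 and AURKB.

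Opposite directions, each past the threshold in its own line, were seen for ADCYAP1R1 (-4.02), CCNG2 (-4.38), DNAJB1 (2.01), DNAJC3 (1.41), IL13RA2 (3.95), NOP16 (2.36) and PFKP (1.61). In this set are the glycolytic enzyme PFKP and the co-chaperone DNAJB1, both higher with shERK5-4 in CHLA-90 and lower in SK-N-BE(2).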

How the results depend on the processing

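The count of probes differing between hairpins in CHLA-90 was 5368 after quantile normalization, 4703 when replicate 1 of shERK5-5 was left out as well, and 4879 in a fit to the 6 hairpin arrays. Leaving out each array gave 4460 to 5598, against 4475 to 5048 in SK-N-BE(2) and 2122 to 3103 for the difference between lines. A limma test of whether the difference exceeded 1.5-fold, which is stricter than a fold cut on called probes, was also run. It passed 1271 probes in CHLA-90, 1819 in SK-N-BE(2) and 482 between lines. An adjusted p below 0.01 left 3715 in CHLA-90 and 1407 between lines. The MAPK7 difference ranged from -0.19 to 0.12 over the arrays left out, crossing 0, and never passed the test. The HGF difference in CHLA-90, not called, was 0.03 after quantile normalization and ranged from -0.32 to 0.05 over the arrays left out, at 0.04 and 0.05 without replicate 2 of shERK5-4 or of shERK5-5.

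Deviations of same-numbered arrays correlated weakly over all probes, at 0.15, -0.014 and 0.14 in CHLA-90 and -0.13, 0.013 and 0.2 in SK-N-BE(2). Such values do not show that the replicate numbers carry no pairing for single genes. With the replicate block 6083 probes differed in CHLA-90, 5441 in SK-N-BE(2) and 3173 between lines. For the 132 genes of the naming rule, 1835 of 1848 pairs of gene and alternative kept direction and side of the threshold, and 0 of the 128 called among them reversed. Further list members were followed only through their lists' counts, several of which moved by over 1.5 times as given above. RPL19 did not pass in the fit to 6 arrays (adjusted p = 0.0763). Differences near 0.5 passed for some genes and not for others, as with SATB1 (-0.47, passed) and MAP2K5 (-0.48, not passed).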

Other observations

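Receptor tyrosine kinase genes were lower with shERK5-4 in 11 (30.6%) and higher in 4 (11.1%) of 36 measured members. Over all genes 12.6% were lower and 16.1% higher. The list median was -0.13 (-0.03 after quantile normalization). ALK, the receptor mutated in some neuroblastomas, measured 7.88, 7.21 and 7.66 with shERK5-4 and 9.56, 9.03 and 9.38 with shERK5-5, without overlap, and was at 25.6% and 85.5% of shNSC (difference -1.74 ± 0.28, limma adjusted p = 6.06e-05). The difference had the same direction in SK-N-BE(2), at -2.52. PDGFRA was lower by 2.12 ± 0.22, and IGF2R, which carries lysosomal enzymes and clears IGF2, was higher by 1.75 ± 0.15 and at 36.9% of shNSC with shERK5-5. IGFBP5, an IGF-binding protein, was lower in CHLA-90 (-1.73) and higher in SK-N-BE(2) (1.24).

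Apoptosis genes moved both ways, 5 higher and 4 lower of 22 (22.7% and 18.2%, against 16.1% and 12.6% of all genes). The survival gene BCL2 measured 7.45, 7.03 and 7.13 with shERK5-4 and 8.69, 8.92 and 8.74 with shERK5-5, and was at 17.2% and 51.5% of shNSC (difference -1.58 ± 0.17). BCL2L1, a relative with a like role, was higher (1.20 ± 0.25), as were BAD (1.48 ± 0.21) and CASP8 (1.46 ± 0.26), whereas XIAP, a caspase inhibitor, was lower (-1.50 ± 0.20). In ganglioside synthesis 5 of 13 were lower (38.5%, against 12.6% of all genes) and 1 higher. Without any 1 of the shERK5-4 arrays 2 were lower, a share near that of all genes, and without replicate 3 of shERK5-5 3. Over the arrays left out the count of higher members was 0 or 1. B4GALT5, a lactosylceramide synthase, had the largest difference of that list (-1.96 ± 0.15).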
